A study of Mus musculus with 12 samples.

Results

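The nuclei described here are the oligodendrocyte lineage nuclei of the newborn mouse forebrain, taken from single-nucleus RNA-seq of 12 libraries, each from 1 animal. A nucleus was selected when it held 800 to 6000 unique molecular identifiers (UMIs), 300 to 3000 genes and at most 1% mitochondrial UMIs, carried at least 4 UMIs summed over Pdgfra, Cspg4, Sox10, Bcas1 and Lhfpl3 with at least 2 of these genes detected, and carried at most 3 UMIs summed over the mitotic genes Mki67, Top2a, Cenpf, Cenpe, Kif11 and Aspm. This left 3611 members among 101742 nuclei within the limits on UMIs, genes and mitochondrial UMIs, or 3.55%, out of 126684 deposited barcodes. No barcode sequence was shared between libraries.

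The study asked how reduced MYT1L, a zinc finger transcription factor of neurons, alters the developing forebrain. WT mice (8 libraries, 5 male and 3 female) carried no mutant allele. Het mice (4 libraries, 3 male and 1 female) carried 1 copy of a germline frameshift allele of Myt1l, S710fsX, in every cell, on a C57BL/6 background. All animals were taken on postnatal day 1, and the labels name frozen forebrain tissue, whereas a passage of the study's methods names prefrontal cortex, so the extent of the dissection is uncertain. The labels name no other allele and no treatment for either group. Libraries are called WT 1 to WT 8 and Het 1 to Het 4. The WT libraries held 1966 members and the Het libraries 1645, with 116 to 540 members per library.

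Oligodendrocyte precursor cells arise from ventral and later from dorsal progenitors of the forebrain, migrate through the tissue and divide in response to platelet-derived growth factor, which they sense through the receptor PDGFRA. They then leave the cycle, pass through a short committed stage marked by genes such as Gpr17 and Bmp4, and begin to make the lipids and proteins of myelin. In the newborn mouse forebrain most cells of the lineage are still precursors and myelination has barely begun. The lineage also bears on the targeted gene: its paralog Myt1 is a known transcription factor of oligodendrocyte precursors, whereas Myt1l is known chiefly from neurons.

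Levels are given as CPM, the count of a gene scaled to the summed UMIs of the nuclei of a library, and CPM is not scaled by gene length, so levels are compared within a gene. Total UMIs per library ran from 15439429 to 40784144, and the members together held 7549882 UMIs, from 226764 in WT 8 to 1135143 in Het 1. A member carried a median of 1729 UMIs and 1108 genes, against 2000 UMIs and 1217 genes over all nuclei within the limits. WT libraries had a median of 1708 ± 105 UMIs per member and Het libraries 1740 ± 105 (mean of library medians ± SD, n = 8 and 4; exact permutation test over libraries, two-sided, p = 0.622). Simulated doublets were used to score each barcode, and 9.53% of the members fell in the 5% of barcodes with the highest score of their library, against 3.83% of all nuclei. WT 4 stood apart in its tissue: 8 striatal markers summed to 55.9 CPM over all its nuclei and to 255 to 529 CPM in the other 11 libraries. This striatal sum was 315, 529, 327 and 453 CPM in Het 1 to Het 4 and at most 366 CPM in WT libraries. Diencephalic markers over all nuclei summed to 102, 91.4, 101 and 68.6 CPM in Het 1 to Het 4 and to 58.3 to 85.1 CPM in WT libraries. The part of tissue content in the share comparisons below was not tested.

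The 5 genes that chose the members did not contribute equally, and what follows on them is description only. Lhfpl3, which encodes a tetraspan membrane protein and lies on chr5:22746059-23275597 (GRCm38), gave 85.1% of all marker UMIs and was detected in 99.8% of members. Pdgfra was detected in 72.8%, Cspg4, the NG2 proteoglycan of precursors, in 37.3%, Bcas1, a gene of newly forming oligodendrocytes, in 29.8%, and Sox10, the transcription factor that defines the lineage, in 22.5%. Exactly 2 of the 5 genes were detected in 51.6% of members, 3 in 36.0%, 4 in 11.1% and all 5 in 1.30%. Lhfpl3 was also detected in 35.0% of 19031 excitatory neuron nuclei, where each of the other 4 genes was found in 0.105 to 0.804%.

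Nuclei on either side of the marker threshold were compared next. The 143 members with 4 to under 5 marker UMIs held 38.6 CPM of Olig1 and Olig2 together and 733 CPM of Sox6, and the 201 nuclei just outside, with 3 to under 4, held 26.0 and 419 CPM. Over all members the same sums were 154 and 3694 CPM, and over the other nuclei 8.56 and 332 CPM. The nuclei just inside the threshold thus lay nearer to those just outside than to the rest of the members. They were 3.96% of all members. Their neuronal markers (Rbfox3, Snap25, Syt1, Stmn2 and Tubb3) summed to 2350 CPM, against 1209 CPM over all members and 2621 CPM in the other nuclei. A further 271 members carried Lhfpl3 and Bcas1 but no Pdgfra, Cspg4 or Sox10, and held 128 CPM of Olig1 and Olig2 and 3336 CPM of Sox6.

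Genes outside the selection were used to check the label. All 9 lineage markers that had no part in the selection were higher in the members than in the other nuclei, and 8 of the 9 by over 2-fold. Olig2, the basic helix-loop-helix factor that specifies the lineage, stood at 106 ± 17.1 CPM in members and 5.00 ± 0.845 CPM in the other nuclei (SD, n = 12 libraries), with no overlap. Olig1, its close relative, was at 56.1 ± 21.9 CPM in members and 13.3 ± 6.00 CPM in astroglial nuclei. Sox8 (65.5 against 3.98 CPM), Nkx2-2 (23.1 against 0.738 CPM) and Gpr17 (43.4 against 0.650 CPM) gave the same order in all 12 libraries. Olig2 was also above its level in astroglial nuclei, 30.1 ± 8.69 CPM, in 12 of 12 libraries. The members thus carried the identity genes of the lineage, as their label says. Since these nuclei were chosen by their own transcripts, no test was made of members against other nuclei for any gene.

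Markers of other cell types were also measured in the members. The 5 neuronal markers were each lower in members than in other nuclei, with sums of 1252 ± 145 and 2634 CPM (SD over 12 libraries for the members). None of 5 endothelial, 5 mural, 6 excitatory and 6 inhibitory neuron markers was above its mean level in the other nuclei, and 1 of 6 microglial and 1 of 5 fibroblast markers was. The 7 astroglial markers summed to 522 ± 93.4 CPM in members and 464 CPM in other nuclei, higher in members in 12 of 12 libraries, with 2 of the 7 above their mean level in other nuclei. In astroglial nuclei they summed to 4346 CPM, these being 3083 nuclei with at least 4 UMIs of Slc1a3, Aldoc, Gja1, Aqp4 and Fgfr3 from at least 2 genes. The astroglial nuclei also held 5 fibroblast markers at a sum of 783 CPM, against 106 CPM in all nuclei other than members.

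Beyond the known markers, 3403 genes reached a mean of 50 CPM in members, of which 258 were over 2-fold and 9 over 10-fold above the other nuclei (mean log2 ratio over libraries, 10 CPM added to both values). The 20 leading genes outside the selection were each higher in members than in other nuclei, and than in astroglial nuclei, in 12 of 12 libraries. The gap to astroglial nuclei was smaller for some of them, with Car8 at 190 against 113 CPM, Itpr2 at 410 against 179 CPM, Arhgap31 at 391 against 152 CPM and Wipf1 at 252 against 83.1 CPM. At the head were Stk32a, a serine/threonine kinase, at 205 ± 42.6 CPM against 5.49 ± 1.10 CPM in other nuclei (SD, n = 12), and Pstpip2, an adaptor of the actin cytoskeleton, at 224 ± 40.1 against 7.13 ± 1.16 CPM. The lowest member level of Stk32a was 131 CPM, in Het 4, and that of Pstpip2 was 169 CPM, in WT 4. The 20 included Itpr2, an intracellular calcium release channel (410 against 29.3 CPM), Shc4, a receptor tyrosine kinase adaptor (199 against 9.97 CPM), Prkcq, a protein kinase C (138 against 4.62 CPM), and Calcrl, a receptor for calcitonin family peptides (210 against 13.4 CPM). They also included the adhesion and matrix genes Pcdh11x (2011 against 183 CPM), Megf11 (275 against 17.8 CPM) and Col19a1 (488 against 49.0 CPM). Wipf1 (252 against 15.4 CPM), Arhgap31 (391 against 36.1 CPM) and Epn2 (823 against 87.2 CPM) act on actin, small GTPases and endocytosis. The uncharacterized transcripts Gm4876 (536 against 39.0 CPM) and Gm10863 (110 against 3.57 CPM) stood among them, as did Lnx1, Car8, Rgcc and Vxn. The transcription factors in the group were Sox6 and Myt1, described below.

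**Figure D1:**
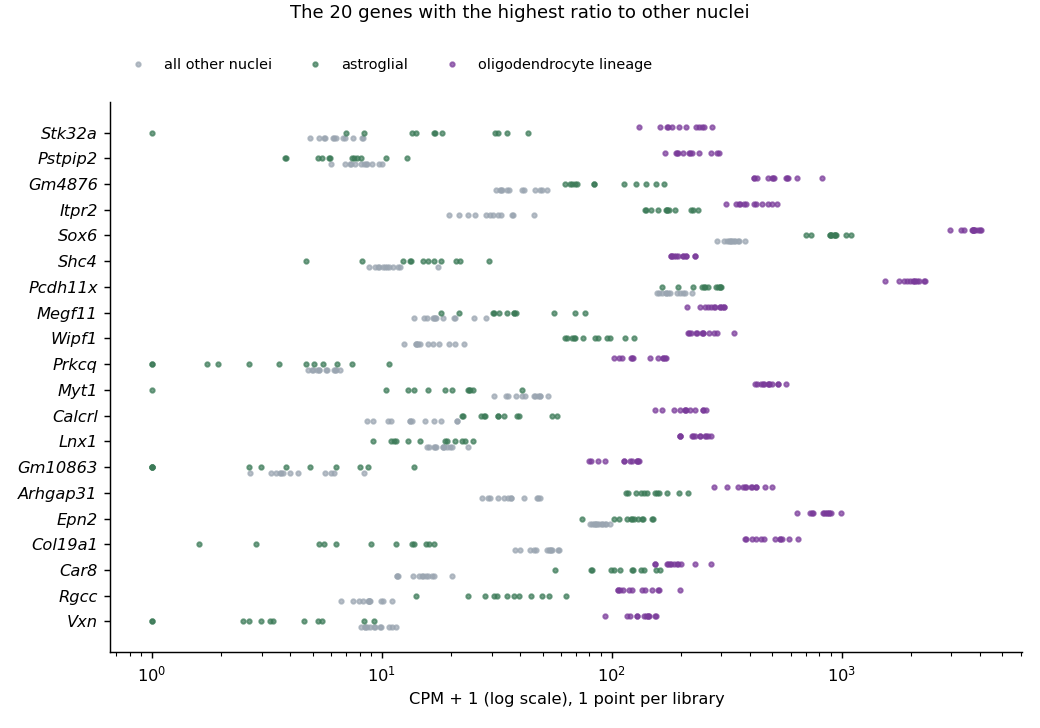
CPM + 1 on a log axis of the 20 leading genes outside the selection, with 1 point per library for oligodendrocyte lineage nuclei, astroglial nuclei and all other nuclei. The lineage points lie to the right of all other nuclei for every gene, as for Stk32a with 205 ± 42.6 against 5.49 ± 1.10 CPM.

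Of 32 transcription factors listed for the lineage, 25 were above their mean level in other nuclei, 19 of them over 2-fold, and 16 were above astroglial nuclei. Of the 7757 genes with counts high enough for the genotype test given further on, 54.4% were above other nuclei, 7.31% over 2-fold, and 36.6% above astroglial nuclei, and these shares stand beside the list counts that follow. Sox6, an SRY-box factor that holds precursors undifferentiated, was at 3664 ± 310 CPM in members, 333 ± 24.5 CPM in other nuclei and 905 ± 109 CPM in astroglial nuclei (SD, n = 12). Its partner Sox5 differed less, at 1485 ± 115 against 1272 ± 189 CPM in other nuclei. Chd7, a chromatin remodeller needed for the lineage, was at 591 ± 81.2 against 74.1 ± 9.92 CPM. Zfp488, a transcriptional repressor expressed in the lineage, was at 21.5 ± 7.89 CPM in members, 0.436 ± 0.231 in other nuclei and 0.196 ± 0.679 CPM in astroglial nuclei. By contrast Nfia, a gliogenic factor, was higher in astroglial nuclei (2278 ± 165 CPM) than in members (963 ± 81.2 CPM) in 12 of 12 libraries.

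Of 22 receptors, 14 were above the other nuclei, whereas of 22 ligands and pathway regulators 8 were. Erbb4, a neuregulin receptor also used by interneurons, was at 6221 ± 423 CPM in members, 2056 ± 351 in other nuclei and 781 ± 262 CPM in astroglial nuclei (SD, n = 12). Ednrb, an endothelin receptor that restrains differentiation, was at 209 ± 60.2 against 23.4 ± 4.62 CPM. Egfr, which marks earlier glial progenitors, was at 61.9 ± 19.8 CPM in members and 417 ± 92.5 CPM in astroglial nuclei, and lower in members in 12 of 12 libraries. Among ligands, the neuregulins Nrg3 (3174 ± 362 against 6215 ± 693 CPM) and Nrg1 (1923 ± 250 against 3728 ± 259 CPM) were lower in members than in other nuclei in every library. Sema3d, a secreted guidance cue, was higher at 151 ± 34.3 against 21.2 ± 4.10 CPM, and so was the Notch ligand Dll3 at 26.8 ± 9.02 against 2.76 ± 0.714 CPM.

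Of 18 matrix genes, 14 were above the other nuclei and 10 above astroglial nuclei. Ptprz1, a receptor-type phosphatase and proteoglycan, was at 2973 ± 355 CPM in members, 912 ± 99.7 in other nuclei and 6370 ± 756 CPM in astroglial nuclei (SD, n = 12). Tnr, which encodes tenascin-R of perineuronal matrix, showed the reverse order of the glia: 1855 ± 288 CPM in members, 598 ± 30.6 in other nuclei and 173 ± 18.8 CPM in astroglial nuclei. Tnc, the related tenascin-C, was at 86.4 ± 31.8 CPM in members and 2458 ± 357 CPM in astroglial nuclei. Xylt1, which starts the sugar chains of proteoglycans, was at 1334 ± 146 against 257 ± 27.1 CPM in other nuclei.

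Of 28 genes of adhesion and synaptic contact, 22 were above the other nuclei and 22 above astroglial nuclei. Dscam, an adhesion molecule of neurite self-avoidance, was at 2040 ± 141 CPM in members, 471 ± 30.7 in other nuclei and 137 ± 40.3 CPM in astroglial nuclei (SD, n = 12). Nxph1, a secreted neurexin ligand, was at 2645 ± 244 against 843 ± 135 CPM in other nuclei, and Tmem132d at 871 ± 127 against 125 ± 47.9 CPM. Precursors are known to receive synaptic input from neurons and to express channels and transmitter receptors. Of 31 such genes 17 were above the other nuclei and 27 above astroglial nuclei. Kcnd2, an A-type potassium channel, was at 5982 ± 562 against 1595 ± 149 CPM in other nuclei, and Grin3a, an NMDA receptor subunit, at 516 ± 104 against 156 ± 39.6 CPM. Gria2, the AMPA receptor subunit that limits calcium entry, was close to other nuclei at 2117 ± 137 and 1717 ± 124 CPM.

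Of 18 genes that mark the place of origin, 4 were above the other nuclei and 6 above astroglial nuclei, and together they summed to 468 ± 83.7 CPM in members and 409 CPM in other nuclei. Only 4 of these 18 had counts high enough for the genotype test. Nkx2-1, a factor of the ventral progenitor zone, was at 10.6 ± 5.94 CPM in members and 0.826 ± 0.556 CPM in other nuclei (SD, n = 12), and higher in members in 12 of 12 libraries. Emx1, of the cortical progenitor zone, was at 1.87 ± 2.84 CPM in members and 5.88 CPM in other nuclei. No UMI of the hindbrain and cord gene Hoxa5 was found among the 7549882 UMIs of the members, which allows up to 0.397 CPM (3 counts). Intervals and limits of this kind cover counting error only.

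The cycling limit removed 158 of 3769 marker-positive nuclei. These nuclei resembled the members in the lineage genes that the cycling limit did not use: they held 215 CPM of Olig1 and Olig2, 3882 CPM of Sox6 and 430 CPM of Myt1, against 154, 3694 and 478 CPM in members, where the Myt1 value leaves out the committed nuclei described next. The 30 members with more than 2 cycling UMIs held 270 CPM of Olig1 and Olig2, and the 22 nuclei just above the limit 286 CPM. Of 33 cell-cycle genes that had no part in the limit, 19 were above other nuclei, beside 54.4% of all genes tested, and 8 were above astroglial nuclei. Only 7 of the 33 had counts high enough to be among the genes tested. The 33 genes summed to 437 ± 50.4 CPM, against 290 CPM in other nuclei and 754 CPM in astroglial nuclei. The other nuclei include those above the cycling limit, whereas members and astroglial nuclei do not. Ccnd1, the cyclin of early G1, was at 45.7 ± 15.3 against 7.71 ± 1.59 CPM in other nuclei, and Hells, a chromatin remodeller of S phase, at 39.3 ± 11.2 against 19.9 ± 2.36 CPM.

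At the other end of the lineage, 109 members (3.02%) carried 2 or more UMIs of 6 genes of committed precursors: Gpr17, 9630013A20Rik, Neu4, Enpp6, Bmp4 and Myrf. They are a range on a count and not a separate type, and 80 of the 109 carried at least 2 of the 6 genes. Their median UMI count was 2026, against 1717 in the 3502 other members, and 1.83% of them had a doublet score in the top 5% of their library, against 9.77% of the other members. WT 7 gave 24 of these nuclei, Het 1 gave 23, WT 4 and WT 5 gave 11 each, and the other 8 libraries 1 to 8 each.

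Genes of myelin and of its onset that had no part in choosing the committed nuclei were compared between them and the other members. Pooled over libraries, 12 of 19 premyelinating genes were higher and 7 lower in committed nuclei, and 12 of 18 myelin genes were higher and 6 lower. Of the 19 genes 8 were higher in 7 or more of the 12 libraries, and of the 18 genes 4 were, while of the 7757 genes 46.0% were higher in the pool and 14.8% in 7 or more libraries. Of the 19 premyelinating genes 17 were among the 7757, and of the 18 myelin genes 5 were. In the pool, the myelin genes Mbp and Fa2h were at 756 and 150 CPM in committed nuclei and at 27.2 and 8.55 CPM in the other members. Without Het 1 the level of Mbp in committed nuclei was 362 CPM. Ugt8a, which makes the galactolipid of myelin, was at 267 against 74.3 CPM and higher in 10 of 12 libraries. Of the premyelinating genes, Fyn, a kinase that couples axon contact to myelin synthesis, was at 1811 against 475 CPM and higher in 12 of 12 libraries. Itpr2 was at 1463 against 384 CPM (10 of 12), Tcf7l2, a WNT effector that turns on myelin genes, at 889 against 142 CPM (9 of 12), Tns3 at 973 against 142 CPM (9 of 12) and Sirt2 at 580 against 69.7 CPM (10 of 12). Nfasc, an adhesion molecule at the node and the myelin end loops, was at 1323 against 231 CPM (8 of 12), and at 836 CPM without Het 1.

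Of 22 receptors 7 were higher and 15 lower in the pooled committed nuclei. Egfr was at 8.35 against 67.7 CPM, Bmpr1b, a BMP receptor, at 12.5 against 106 CPM, and Chrm3, a muscarinic receptor, at 33.4 against 151 CPM, each higher in 1 of 12 libraries and resting on 2, 3 and 8 UMIs in committed nuclei. Egfr was at 4.42 CPM there without WT 1 and 5.38 CPM without WT 7, Bmpr1b at 4.38 CPM without WT 3 and Chrm3 at 17.8 CPM without Het 3. Tnr was higher in the committed nuclei, at 6488 against 1723 CPM and higher in 11 of 12 libraries. Among genes of no list that stood high in committed nuclei was Epb41l2, a membrane skeleton protein, at 1631 against 114 CPM (higher in 7 of 12 libraries). Others were the uncharacterized transcript 9530059O14Rik, at 918 against 69.9 CPM (9 of 12), and Arhgap24, a regulator of small GTPases, at 1369 against 129 CPM (10 of 12). Genes of compact and mature myelin remained near 0: over all members Mog was at 1.09 ± 1.23 CPM, Mobp at 0.323 ± 0.622 CPM and Opalin at 0.118 ± 0.320 CPM (SD, n = 12). Mag was at 58.4 CPM in committed nuclei and higher there than in the other members in 2 of 12 libraries, and at 16.0 CPM without Het 1. These levels are descriptions of 109 nuclei from libraries of unequal weight, with no test.

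**Figure D2:**
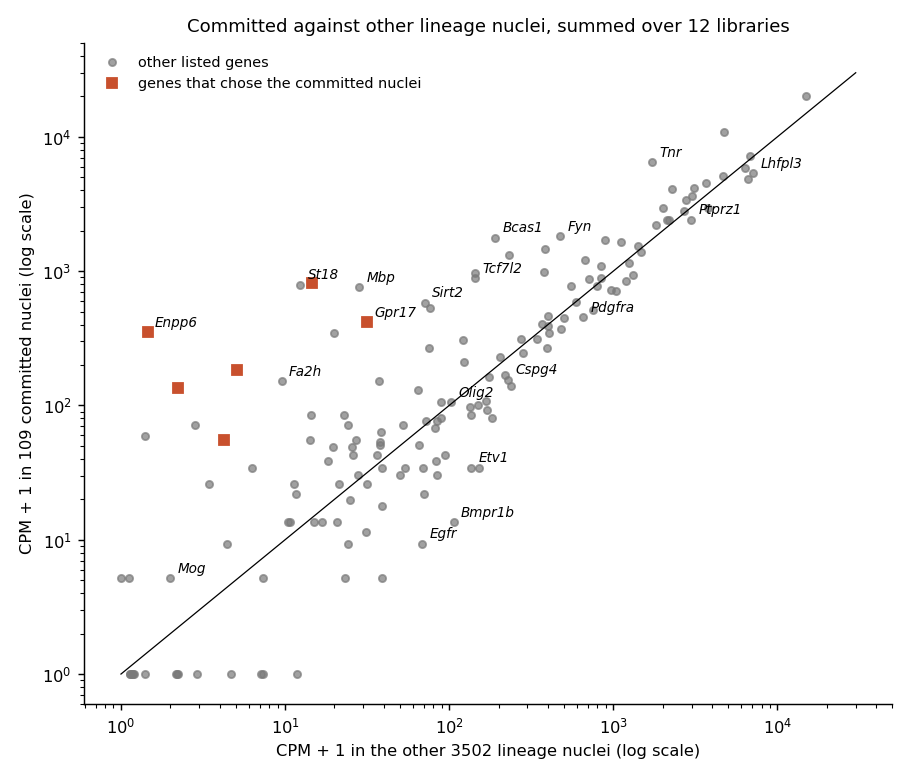
Each point is 1 gene of the lists, with its CPM + 1 over the 3502 other members on the x axis and over the 109 committed nuclei on the y axis (both log axes), squares being the 6 genes that chose the committed nuclei and the line equal levels. Fyn (1811 against 475 CPM), Mbp and Tcf7l2 lie above the line, and Egfr (8.35 against 67.7 CPM) and Bmpr1b below it.

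Among the sets of nuclei measured here, the 3 genes of the Myt1 family of zinc finger factors were highest in 3 different ones. Myt1, on chr2:181763332-181827797, was at 481 ± 44.4 CPM in members, 41.6 ± 6.86 CPM in other nuclei and 18.2 ± 9.75 CPM in astroglial nuclei (SD, n = 12). Its levels ran from 420 CPM in Het 4 to 571 CPM in WT 8 and never came near the 29.7 to 51.7 CPM of the other nuclei. St18, on chr1:6487231-6860940, a repressor of this family, was at 789 CPM in the committed nuclei, 11.4 CPM in the other members and 6.64 CPM in excitatory neuron nuclei. It was higher in committed nuclei than in the other members in 7 of 12 libraries. Over all nuclei other than members it was at 14.3 ± 4.11 CPM (SD, n = 12). It was detected in 31 of 109 committed nuclei (28.4%) and in 59 of 3502 other members (1.68%). Without Het 1, St18 was at 485 CPM in the committed nuclei.

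St18 was uneven across libraries. In members it was at 17.3, 5.81, 20.4, 21.8, 64.8, 14.6, 79.4 and 0 CPM in WT 1 to WT 8, and at 94.6, 9.13, 15.1 and 6.77 CPM in Het 1 to Het 4. Het 1, WT 7 and WT 5, the libraries with 23, 24 and 11 committed nuclei, were the highest, while WT 4, also with 11 committed nuclei, was at 21.8 CPM. The other 3 Het libraries lay inside the WT range and Het 1 above it. The 0 in WT 8 allows up to 13.2 CPM (3 counts among the member UMIs of that library).

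Myt1l, the targeted gene, lies on chr12:29528384-29923213 of the plus strand and overlaps Gm20208 and C630031E19Rik on the other strand. Use of strand in the counting was not given in the sources used here, and reads of these genes cannot be told apart. Its level was 652 CPM in the other members, 326 CPM in committed nuclei, 390 CPM in marker-positive nuclei above the cycling limit, 395 CPM in astroglial nuclei and 1826 CPM in excitatory neuron nuclei. Myt1 over the same 5 sets was at 478, 372, 430, 18.7 and 31.9 CPM. The neuronal marker sum moved in the same order as Myt1l across the 3 main sets, at 692 CPM in astroglial nuclei, 1252 in members and 2945 CPM in excitatory neuron nuclei, and its part in the Myt1l level of members was not tested. With the top-scored doublets removed, Myt1l in members was at 528 ± 118 CPM in WT and 530 ± 141 CPM in Het libraries (SD, n = 8 and 4).

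**Figure D3:**
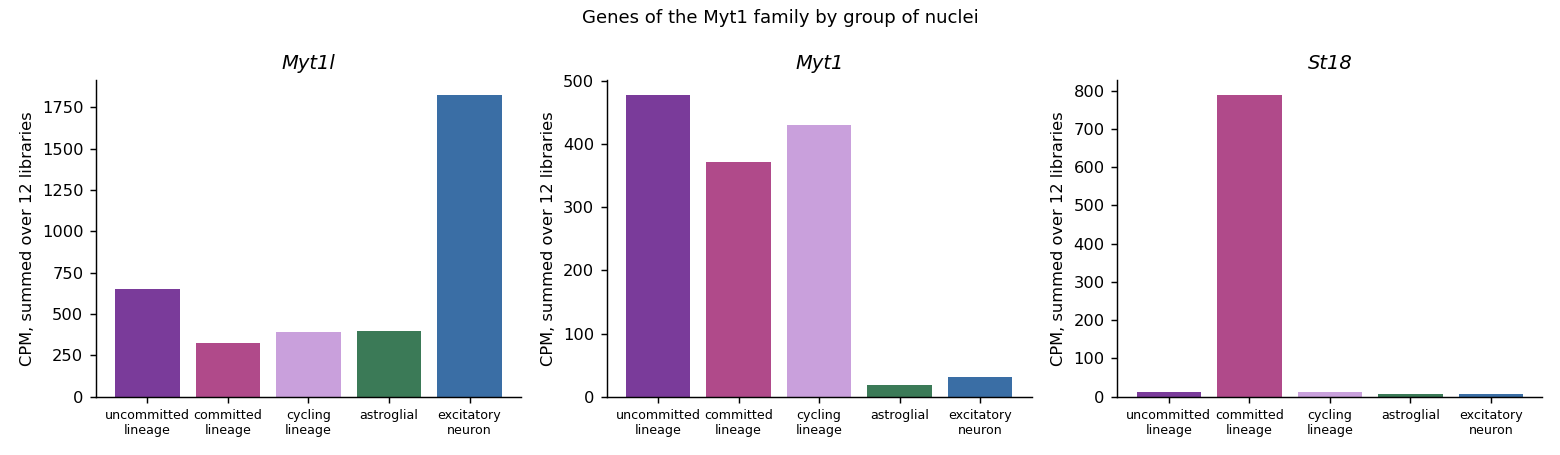
Bars give the CPM of Myt1l, Myt1 and St18 summed over 12 libraries in the other (uncommitted) members, committed nuclei, marker-positive nuclei above the cycling limit, astroglial nuclei and excitatory neuron nuclei, each gene on its own axis. Among these sets Myt1 is high in the 3 lineage sets (372 to 478 CPM against 18.7 and 31.9 CPM), St18 in committed nuclei (789 CPM) and Myt1l in excitatory neuron nuclei (1826 CPM).

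Whether Het forebrains held more or fewer nuclei of the lineage was asked first. The share of members among nuclei within the limits was 2.74, 5.14, 2.93, 3.46, 3.44, 2.18, 3.75 and 2.42% in WT 1 to WT 8, and 4.93, 4.08, 4.05 and 2.17% in Het 1 to Het 4. The 2 extremes, WT 2 and Het 4, lay on the side opposite to their group. The other 3 Het libraries were inside the WT range. The WT mean was 3.26 ± 0.932% and the Het mean 3.81 ± 1.17% (SD, n = 8 and 4), a difference of 0.551 percentage points that was within the spread between libraries (exact permutation test, two-sided, p = 0.376, adjusted p = 0.380 over 5 share measures). Without Het 4, the single female Het library, the difference was 1.10 percentage points (exact permutation p = 0.0848), and without Het 1 it was 0.177 (exact permutation p = 0.727). Among males it was 0.812 percentage points (5 WT and 3 Het libraries, exact permutation p = 0.214, the smallest possible being 0.0357). After each nucleus was thinned to 800 UMIs and the limits were scaled, the shares were 2.29 ± 0.597% and 2.70 ± 0.775% (n = 8 and 4, exact permutation p = 0.319). Their difference of 0.414 percentage points became 0.169 without Het 1 and 0.779 without Het 4 (exact permutation p = 0.0606).

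The number of members was also set against astroglia, a ratio that neuron numbers do not enter. The astroglial nuclei also held fibroblast markers, at 783 CPM against 106 CPM in all nuclei other than members. The part of such nuclei in the ratio was not tested. There were 83.9, 149, 92.4, 126, 160, 111, 106 and 52.5 members per 100 astroglial nuclei in WT 1 to WT 8, and 167, 144, 161 and 60.1 in Het 1 to Het 4. Het 1 and Het 3 were the highest of all and Het 4 was the second lowest of all. The difference of 22.6 was within the spread (110 ± 35.1 against 133 ± 49.5, n = 8 and 4, exact permutation p = 0.364, adjusted p = 0.380), and without Het 4 it was 46.8 (exact permutation p = 0.0485, not adjusted). It was 11.3 without Het 1, 13.2 without Het 3 and 14.3 without WT 8.

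Shares of the cycling and committed stages were lower in the mean of the Het libraries, also within the spread. Of marker-positive nuclei, 2.57, 3.34, 3.70, 13.0, 4.08, 2.82, 4.98 and 8.66% lay above the cycling limit in WT 1 to WT 8, and 2.88, 2.45, 4.03 and 4.02% in Het 1 to Het 4. WT 4 and WT 8 were the highest and WT 5 and WT 7 also lay above the Het range, while the other 4 WT libraries were inside it. The means were 5.40 ± 3.63% and 3.34 ± 0.806% (n = 8 and 4, exact permutation p = 0.287, adjusted p = 0.380). Without WT 4, the library that was low in striatal markers, the difference went from -2.05 to -0.963 percentage points. Committed nuclei made up 2.31, 1.33, 2.75, 5.88, 3.90, 0.725, 6.28 and 3.45% of members in WT 1 to WT 8 and 4.26, 1.83, 1.47 and 1.57% in Het 1 to Het 4. Het 1 lay apart from the other 3 Het libraries and within the WT range. The means were 3.33 ± 1.99% and 2.28 ± 1.33% (n = 8 and 4, exact permutation p = 0.380, adjusted p = 0.380). The difference of -1.05 percentage points became -0.624 without WT 7, -0.682 without WT 4 and -1.71 without Het 1. It was -0.572 among members with at least 1 UMI of Pdgfra, Cspg4 or Sox10, a limit that leaves out 32 of the 109 committed nuclei. With 8 against 4 libraries the smallest p that this test can give is 0.00404. Both differences turned direction under the replicate block described at the end, to 0.236 percentage points for the cycling share and 0.504 for the committed share.

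**Figure D4:**
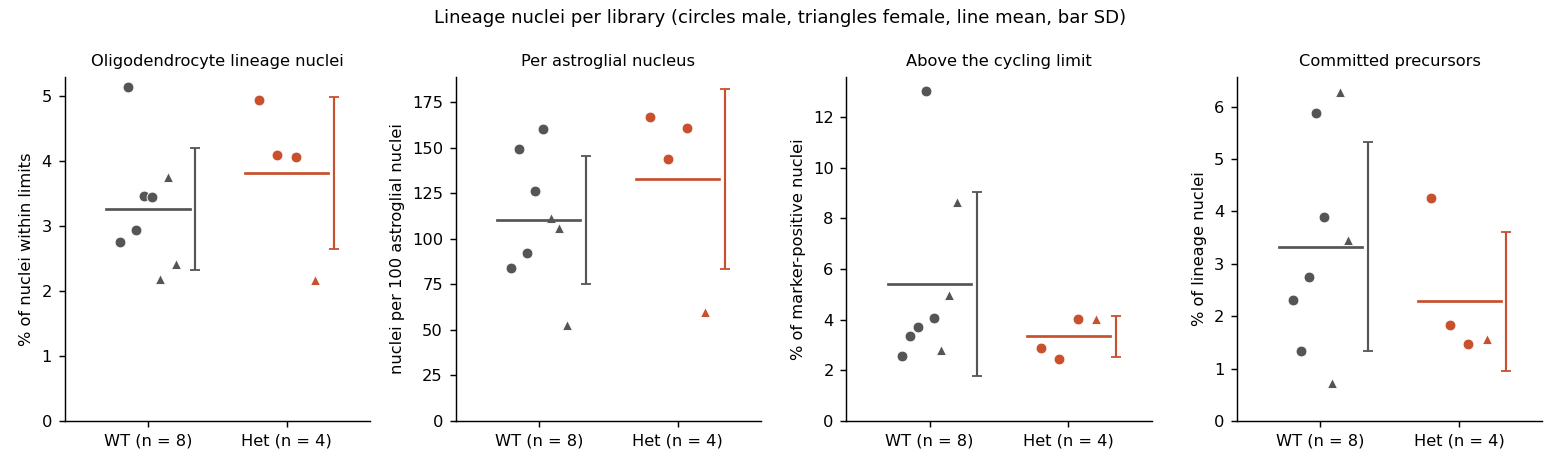
Each point is 1 library (circles male, triangles female), with the mean as a line and the SD as a bar, for members in % of nuclei within the limits, members per 100 astroglial nuclei, nuclei above the cycling limit in % of marker-positive nuclei and committed nuclei in % of members. The groups overlap in every panel, as for the member share with 2.18 to 5.14% in WT and 2.17 to 4.93% in Het libraries.

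Expression within the members was then compared between genotypes on counts summed per library. The targeted gene came first. Myt1l in members was at 563, 566, 618, 530, 823, 732, 608 and 544 CPM in WT 1 to WT 8 and at 553, 743, 660 and 775 CPM in Het 1 to Het 4. The groups overlapped, and the means of 623 ± 103 and 683 ± 99.0 CPM did not differ beyond the spread (exact permutation p = 0.347). In the other nuclei Myt1l ran from 1287 to 1635 CPM in WT and from 1572 to 1679 CPM in Het libraries. A frameshift allele can still be transcribed, so this level is no check of the genotype labels.

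Of 7757 genes tested with edgeR's quasi-likelihood test, 1 (0.0129% of those tested) passed both thresholds, a log2 difference of at least 0.2 and an adjusted p (Benjamini-Hochberg) under 0.05. DESeq2 also called 1 gene (0.0129%), the same one. At an unadjusted p under 0.05 there were 362 genes (4.67%), 176 higher (2.27%) and 186 lower (2.40%) in Het libraries. Log2 differences were positive for 3863 genes and negative for 3894.

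The called gene was Tafa1, which encodes a small secreted chemokine-like protein of the brain and lies on chr6:96113154-96657198. In members it was at 339, 296, 357, 319, 389, 200, 305 and 146 CPM in WT 1 to WT 8 and at 513, 557, 673 and 463 CPM in Het 1 to Het 4. Every Het library was above every WT library. The same order within each sex follows from this and is no separate result. Males were at 513 to 673 CPM in Het and 296 to 389 CPM in WT libraries. Females were at 463 CPM in Het 4, the single female Het library, and at 146 to 305 CPM in WT libraries. Tafa1 was picked by its p, so the non-overlap is no separate evidence of a difference. The means were 294 ± 81.6 and 552 ± 89.8 CPM (SD, n = 8 and 4), a log2 difference of 0.86 ± 0.14 (SE; edgeR, adjusted p = 0.0202). In the other nuclei Tafa1 was at 519 to 957 CPM in WT and 613 to 755 CPM in Het libraries, and these ranges overlapped. The log2 difference in members exceeded that in other nuclei by 0.75 ± 0.17 (SE), which did not pass the test of the interaction (edgeR, adjusted p = 0.220).

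Tafa1 was also found in other nuclei, and over all of them its mean level was above that of the members (680 against 380 CPM). It was at 678 ± 147 CPM in excitatory neuron nuclei (SD, n = 12). In astroglial nuclei it was lower, at 183 ± 82.5 CPM, and members were above these in 11 of 12 libraries. The neuronal marker sum in members was 1254 ± 137 CPM in WT and 1247 ± 183 CPM in Het libraries (SD, n = 8 and 4), with overlapping ranges. The 6 excitatory neuron markers summed to 435 ± 81.8 CPM (304 to 554) in WT members and 525 ± 65.3 CPM (463 to 592) in Het members, with a median log2 difference of 0.28 over the 5 tested, 1 of which was higher at an unadjusted p under 0.05. The part of excitatory neuron transcripts in the Tafa1 level was not tested. With the top-scored doublets removed, Tafa1 was at 286 ± 84.1 CPM in WT and 535 ± 125 CPM in Het libraries (SD, n = 8 and 4), a log2 difference of 0.85 (edgeR, adjusted p = 0.128). With at least 5 marker UMIs it was 0.69 (edgeR, adjusted p = 0.0725). The call was lost without WT 2 (adjusted p = 0.0766), WT 4 (0.0609), Het 2 (0.108) or Het 3 (0.459), with log2 differences of 0.75 to 0.93 over all 12 fits that left out 1 library. Among males alone the log2 difference was 0.76 (edgeR, adjusted p = 0.00391). Of 21 alternatives 15 kept the call and 6 lost it. Those that kept it included the DESeq2 Wald test (adjusted p = 0.00439) and sex as a covariate (edgeR, adjusted p = 0.00259).

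The next 9 genes by p did not pass the threshold (edgeR, adjusted p from 0.405 to 0.557). Gm47283, a transcript whose ID was not found in the annotation used here, was at 87.4 to 662 CPM in WT members and at 827 to 1089 CPM in Het members. In the other nuclei it was at 94.4 to 740 and 895 to 1188 CPM, again without overlap (interaction 0.07 ± 0.10 SE on the log2 scale, edgeR adjusted p = 0.996). In members Gm47283 was called in 3 alternatives by edgeR: without WT 7 (adjusted p = 0.0368), under the replicate block described at the end (4.71e-05) and with no filter on low counts. Tmem241, a predicted nucleotide sugar transporter, was at 21.8 to 36.9 CPM in WT and 13.5 to 18.9 CPM in Het members. 1700025G04Rik was at 410 to 488 CPM in WT and 330 to 369 CPM in Het members. Neither pair of ranges overlapped, but both genes were picked by their p, and non-overlap was not counted over all genes tested. In the other nuclei 1700025G04Rik was at 179 ± 9.57 CPM in WT and 153 ± 19.1 CPM in Het libraries (interaction -0.08 ± 0.09 SE, edgeR adjusted p = 0.991). Tmem241 was at 18.4 ± 2.83 and 19.6 ± 1.30 CPM there (interaction -0.91 ± 0.22 SE, edgeR adjusted p = 0.271). For Tshr, the thyrotropin receptor, the WT range of 8.82 to 36.4 CPM held the highest Het value, 15.8 CPM, and the other 3 Het libraries lay between 5.76 and 7.93 CPM.

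Among the genes with higher Het means, Htr2c, a serotonin receptor, was highest in Het 2 with 153 CPM, while Het 1 at 7.49 CPM was below the WT median of 15.1 CPM. Its log2 difference of 1.96 became 0.985 without Het 2 (edgeR, adjusted p = 0.9997). Without Het 1 it became 2.41 and was called (edgeR, adjusted p = 0.00124). Avl9, a factor of secretory transport, was at 36.4 to 60.4 CPM in WT and 58.6 to 106 CPM in Het members. Foxp1, a forkhead factor of many neurons, was at 295 to 458 and 433 to 637 CPM. Col1a2, a collagen of fibroblasts, was at 12.3 to 30.9 and 27.2 to 63.2 CPM, and Fn1, fibronectin, at 2.73 to 38.2 and 18.1 to 59.0 CPM. All 4 overlapped between groups. The 5 fibroblast markers summed to 51.3 ± 19.7 CPM in WT members (23.8 to 83.8) and to 95.3 ± 32.0 CPM in Het members (56.4 to 134), and both of the markers tested, Col1a2 and Col3a1, had an unadjusted p under 0.05. Choroid plexus markers summed to 5.48 ± 6.19 and 24.7 ± 25.2 CPM, with 46.1 and 46.9 CPM in Het 2 and Het 3 and at most 17.3 CPM in the other 10 libraries. The 5 endothelial markers summed to 21.4 ± 13.5 CPM in WT members (5.32 to 48.2) and to 40.4 ± 18.0 CPM in Het members (18.8 to 60.6), and none of them had counts high enough for the test. The part of these cell types in the Col1a2, Fn1 and Htr2c levels was not tested.

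**Figure D5:**
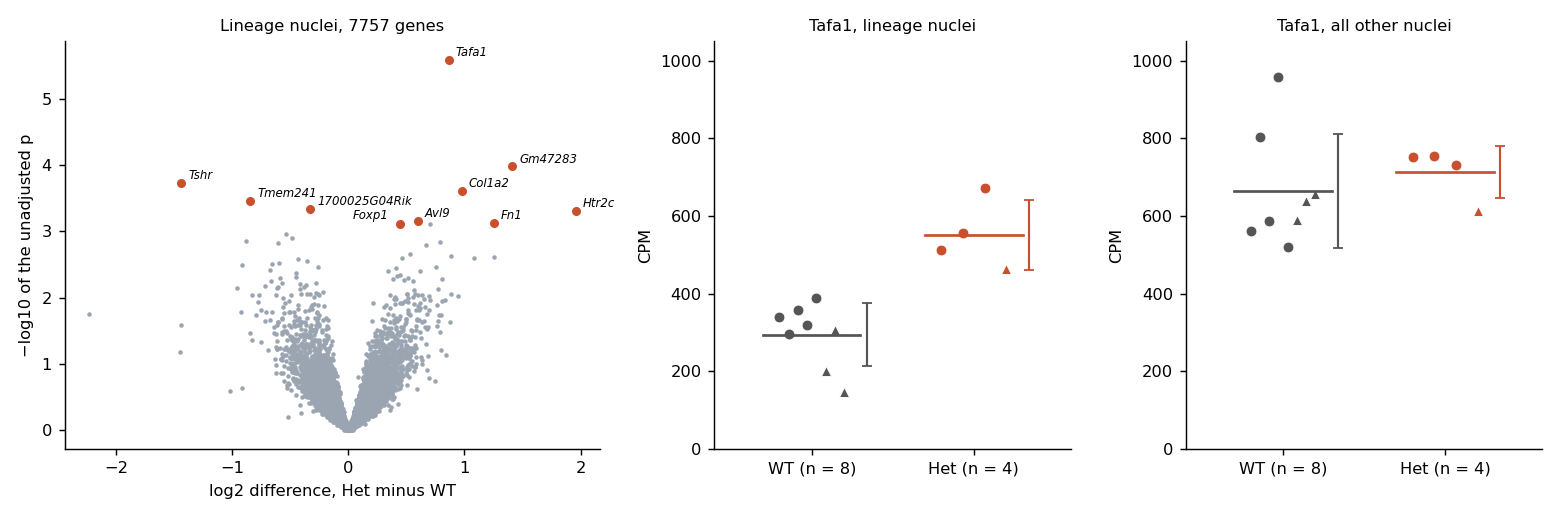
The left panel plots, for each of 7757 genes, the log2 difference of Het minus WT members against the −log10 of the unadjusted p, with the 10 genes of smallest p in orange. The other panels give Tafa1 in CPM per library (circles male, triangles female, line mean, bar SD): in members the 4 Het libraries (463 to 673 CPM) lie above the 8 WT libraries (146 to 389 CPM), and in the other nuclei the groups overlap (613 to 755 and 519 to 957 CPM).

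No gene of any lineage list was called between genotypes by edgeR. Among 28 transcription factors tested, 1 had an unadjusted p under 0.05 and it was lower in Het libraries: Etv5, an effector of fibroblast growth factor signalling, at 76.2 ± 12.7 CPM in WT and 57.3 ± 9.98 CPM in Het members (log2 difference -0.36, adjusted p = 0.998). None of 17 receptors, 15 ligands and 16 matrix genes had such a p. Of 29 channels and receptors for transmitters 1 was higher and 4 were lower, the latter including the calcium channel genes Cacna1a (449 ± 53.4 and 392 ± 16.4 CPM) and Cacna1d (390 ± 34.9 and 337 ± 12.2 CPM). Of 28 adhesion genes 2 were lower, Luzp2 and Tmem132d. All of these had edgeR adjusted p = 0.998, and the background at this unadjusted threshold was the 4.67% given above.

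Genes of identity and maturation overlapped between the groups. Olig2 was at 85.3 to 134 CPM with a median of 107 CPM in WT members, and at 88.1, 98.4, 99.7 and 88.1 CPM in Het 1 to Het 4. All 4 Het values lay below the WT median and inside the WT range. Gpr17 was at 28.3 to 45.8 CPM in Het and 31.4 to 66.6 CPM in WT members. Myt1 was at 487 ± 44.7 CPM in WT and 468 ± 47.3 CPM in Het members (log2 difference -0.05 ± 0.09 SE). Of 17 premyelinating genes tested 1 had an unadjusted p under 0.05, Prickle1 of planar polarity, at 99.3 ± 23.1 CPM in WT and 70.0 ± 6.90 CPM in Het members (log2 difference -0.54 ± 0.15 SE, edgeR adjusted p = 0.705). Mbp was at 10.9 to 82.6 CPM in WT members and at 128, 27.8, 33.8 and 36.1 CPM in Het 1 to Het 4, with Het 1 alone above the WT range.

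For the genes that chose the members no genotype difference is given, since the selection used their counts. The striatal marker sum in members was 32.3 CPM in WT 4 and 99.2 to 295 CPM in the other 11 libraries.

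Whether any genotype difference was specific to members was asked with the interaction of genotype and nuclei set, each library holding both sums. By edgeR no gene passed (0 of 7757, 0.00%), and 452 genes (5.83%) had an unadjusted p under 0.05, of which 242 (3.12%) had a higher (more positive) log2 difference of Het minus WT in members than in other nuclei and 210 (2.71%) a lower one. DESeq2 called 1 gene (0.0129%). Myt1l had an interaction log2 difference near 0 (SE 0.10) and Myt1 one of -0.25 ± 0.10 (edgeR adjusted p = 0.754), with Myt1 in other nuclei at 39.5 ± 6.84 CPM in WT and 45.9 ± 5.13 CPM in Het libraries.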

How the data were processed

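Forebrain nuclei of 12 mice (8 WT, 4 Het; 1 library each) were barcoded in distinct wells of 1 batch. The authors deposited, per library, a gene-by-barcode matrix of expected counts of UMIs made with the ScaleRna workflow (mm10); 6.58 to 6.88% of entries were not whole, and the rule that divided UMIs was not given in the sources used here. Processing notes by the submitters also list Seurat 4.3.0. Of 55335 gene IDs, 54587 matched GENCODE annotation of GRCm38.

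Counts were summed per library over members and rounded, since the design had assumed whole counts. edgeR 4.0.16 (filterByExpr, TMM, quasi-likelihood, genotype as the only term) was the main test and DESeq2 1.42.0 (R 4.3.3) an alternative, both tested on simulated data. Calls needed a Benjamini-Hochberg adjusted p under 0.05 over all genes tested and a log2 difference of 0.2. Shares were compared by exact two-sided permutation of the genotype labels over libraries, with 1 value per animal. Doublets were scored but kept in the main values. No 2 libraries of the same genotype held identical counts (34 pairs compared), and pairs across genotypes were not compared.

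Named genes were those of the selection and the Myt1 family, the 6 genes of each list with the highest CPM, 20 leading genes by member-to-other ratio (at least 50 CPM) and the 10 with the smallest genotype p. Other genes were named for their role after their values were seen, and a few listed genes are not reported here. The members and lists were chosen with earlier results of these data known. Alternatives were other marker limits, doublets removed, other normalization, no filter, males only, sex as a covariate, a replicate block and each library left out.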

Additional observations from a re-analysis of the deposited data

Results flagged for a closer look

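Among 90 groups of 4 or 8 libraries examined over 45 measures, 10 held 1 library far from the rest by Dixon's criterion, which chance alone meets in about 1 in 20 groups. The measures overlap in genes and nuclei, as the committed share and the committed precursor sum do, and are not independent. None of the 10 was tested further, and no cause is given.

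Het 1 stood apart in measures of the later lineage. It had 4.26% committed nuclei among its members, with the next Het library at 1.83%. Its St18 level was 94.6 CPM, against 15.1 CPM in the next. The committed precursor genes summed to 215 CPM against 75.4 CPM, and the premyelinating genes to 2678 CPM against 2069 CPM. In the same library the ion channels and transmitter receptors summed to 25703 CPM, the lowest of the Het libraries, with the next at 27150 CPM. WT 7 and WT 4, at 6.28% and 5.88% committed nuclei, exceeded Het 1.

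WT 8, the library with the fewest members (116), stood apart among WT libraries in 3 sums: astroglial markers at 786 CPM (next 552 CPM), inhibitory neuron markers at 326 CPM (next 200.3 CPM) and axon contact genes at 1413 CPM (next 1548 CPM). WT 4, low in striatal markers over all nuclei, had the highest sum of diencephalic markers in members among WT libraries, 254 CPM against 209.5 CPM in the next, with Het 1 at 251 CPM. Tcf7l2 gives most of that sum and is also a premyelinating gene. WT 6 had the highest Fn1 of the WT libraries, 38.2 CPM against 18.7 CPM.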

How the results depend on the processing

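Of 137 alternative values of the share, depth and Myt1l measures, 131 kept their direction and their side of the threshold. Of the 6 exceptions, 2 were without Het 4: the difference in members per 100 astroglial nuclei became 46.8 (exact permutation p = 0.0485; 11.3 to 46.8 over the libraries left out), and that in median UMIs -0.75 (-0.75 to 80.4), with -11.6 in males only. That in the committed share ran from -1.71 to -0.624 percentage points with 1 library left out. Myt1l turned to -34.3 CPM over all deposited barcodes, its log2 difference to -0.018 with doublets removed, and that of Myt1 to 0.0048 in males only. The count of 1 gene called between genotypes became 19 of 27182 with no filter, 2 in males only, and 0 with 5 or more marker UMIs (359 at an unadjusted p under 0.05) and with doublets removed (298), by edgeR. Leaving out 1 library gave 0 to 3 genes, with 0 without WT 2, WT 4, Het 2 or Het 3. The interaction count of 0 became 1 with DESeq2, 29 with no filter, 2 in males only and 0 to 6 with 1 library left out, 6 being without Het 1. Label numbers shared by sex gave 4 pairs, whose deviations correlated at -0.0111, 0.0285, 0.0244 and 0.117, and 1 of the 4 Het libraries correlated best with its own number, so the numbers were not taken to pair animals. Under this replicate block, whose shares leave out WT 4, WT 5, WT 7 and WT 8, the differences in the cycling share (-2.05) and the committed share (-1.05) turned direction, to 0.236 and 0.504 percentage points (smallest p for 4 pairs 0.125), 5 genes were called between genotypes and 7 for the interaction. The cause of these shifts was not tested. Depth limited the genes that could be compared, with 7757 of the 27182 genes detected in members above the count filter.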
